A study of Sus scrofa with 6 samples.

Results

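The antioxidant and detoxification enzymes of pig longissimus muscle were taken as the gene records whose symbol in the deposited table belongs to the superoxide dismutases, catalase, glutathione peroxidases, peroxiredoxins, thioredoxins and their relatives, glutaredoxins, glutathione synthesis, glutathione transferases, quinone and heme oxidoreductases, selenoproteins, sestrins or aldehyde dehydrogenases. The choice used symbols alone, and 49 of the 7661 records (0.64%) matched, each symbol on 1 record. Transcript abundance was measured by RNA sequencing of whole longissimus, the long back muscle, in 3 pigs (Sus scrofa) of the High_IMF group and 3 pigs of the Low_IMF group, which had high and low intramuscular fat. Intramuscular fat is the marbling fat inside the muscle. Every library came from the same muscle by the same RNA protocol and no treatment is stated. The sources used here give neither the breed, sex and age of the pigs nor whether animals were paired. Whole muscle holds fat, connective tissue, vessel and blood cells beside its fibres, and in such tissue fewer cells of a type and less RNA per cell cannot be told apart.

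Muscle respires heavily and so forms superoxide and hydrogen peroxide. Superoxide dismutases turn superoxide into hydrogen peroxide, which catalase, the glutathione peroxidases and the peroxiredoxins remove. Those peroxidases are recharged by glutathione or thioredoxin, and the reducing power comes from NADPH. Glutathione transferases and aldehyde dehydrogenases clear reactive products, among them the aldehydes left by lipid peroxidation, and several enzymes of the network carry selenium as selenocysteine in their active site.

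Library totals were between 25371989 and 28874691 reads in High_IMF libraries and between 30139025 and 34813172 reads in Low_IMF libraries. Of 9 muscle fibre markers 6 were measured, all abundant, with ACTA1, the skeletal actin, between 22858 and 29139 CPM in High_IMF and between 22413 and 29737 CPM in Low_IMF. Levels are CPM, read counts per 1000000 reads of the library, after TMM scaling, which evens out composition between libraries. They are not divided by transcript length, so the levels of different genes are not compared. Member counts ran from 165 reads (ALDH18A1) to 68097 reads (TXNIP), for which counting alone gives an error of 7.78% and 0.383%. The deposited table holds genes above 10 CPM in at least 3 libraries. All 49 members met that, 45 of them in every library, and none through the 3 libraries of 1 group alone. SOD3, GPX1, GSR, HMOX1 and other enzymes of these families were not matched and are not analysed here.

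None of the 49 members passed the test between High_IMF and Low_IMF at an adjusted p under 0.05 (edgeR quasi-likelihood test over all 7661 records, Benjamini-Hochberg adjustment), where 0.144% of all records did (0.131% higher and 0.0131% lower in High_IMF). Their log2 fold changes, given throughout as High_IMF minus Low_IMF, lay between -0.79 (GLRX) and 0.80 (SESN1), with a median of -0.09 beside -0.04 over all records. Values were positive in 20 members and negative in 29 (21 and 28 with DESeq2 size factors). An unadjusted p under 0.05 was reached by 6 members, or 12.2%, against 18.5% of all records. Libraries of the 2 groups did not overlap in 8 members, or 16.3%, against 26.8% of all records. Both shares were below those of the table as a whole. Precision was enough to bound most of the members: the 95% interval of the log2 fold change lay inside plus or minus 1 in 38 of 49, or 77.6%, where 83.6% of all records were so bounded. limma-voom called 0 members, against 0.104% of all records, and edgeR's exact test called 0, against 4.12%. DESeq2 called 4 (8.16%, against 6.77% of all records). By the false discovery rate in the authors' deposited table, 0 members were under 0.05 where 4.12% of records were, and the lowest was 0.0507, for GSTK1. The exact test gave the same share and the same lowest value, so it is no separate support.

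**Figure D1:**
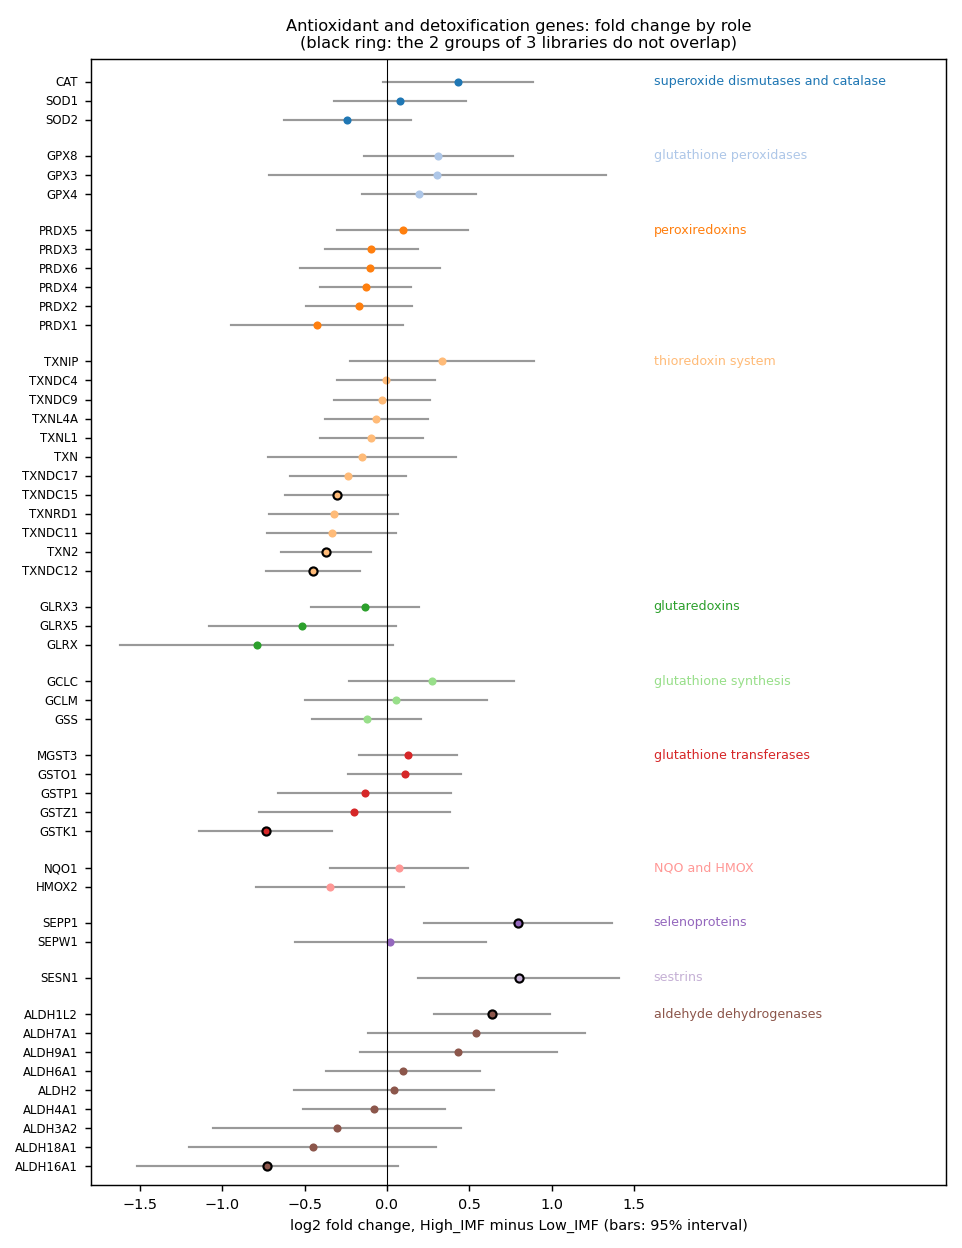
Log2 fold change of each of the 49 genes (x axis, High_IMF minus Low_IMF, points with 95% intervals from edgeR's quasi-likelihood fit), grouped by role down the page; a black ring marks the 8 genes whose 3 High_IMF and 3 Low_IMF libraries do not overlap. The points lie between -0.79 (GLRX) and 0.80 (SESN1), and 6 intervals leave out 0.

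The 6 members with an unadjusted p under 0.05 were SESN1, SEPP1 and ALDH1L2 on the higher side and GSTK1, TXNDC12 and TXN2 on the lower side in High_IMF. In the direction of higher values the 3 members make 6.12% of the list against 10.2% of all records, and in the direction of lower values 6.12% against 8.3%. All 6 had groups without overlap, as did ALDH16A1 and TXNDC15, both lower in High_IMF. By direction these were 3 members higher (6.12%, against 13.5% of all records) and 5 lower (10.2%, against 13.3%).

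**Figure D2:**
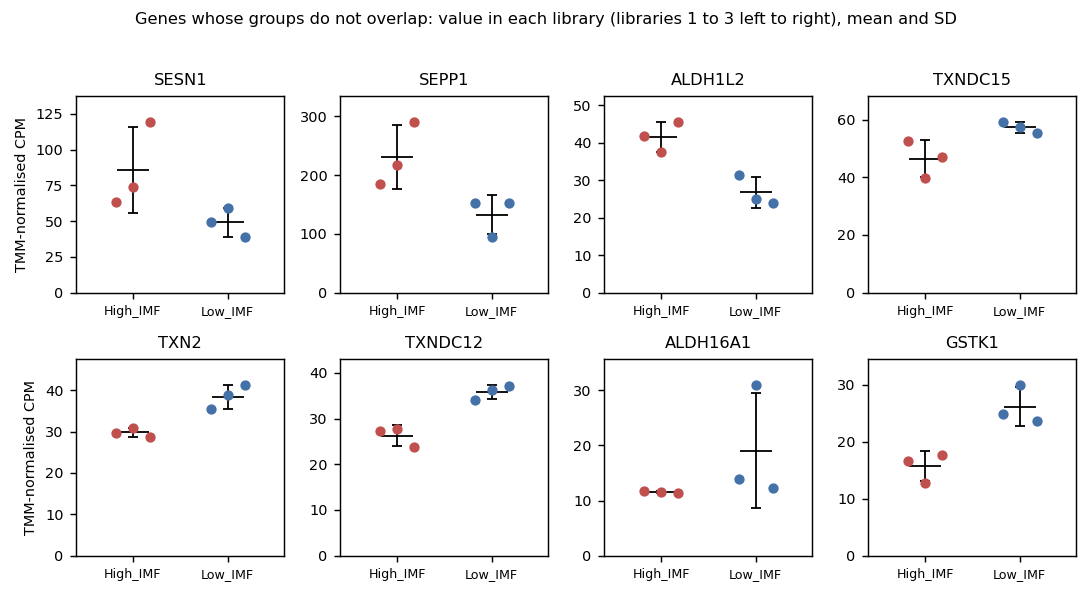
TMM-normalised CPM (y axis, from 0) of the 8 genes without overlap, in High_IMF (left, red) and Low_IMF (right, blue) libraries, 1 point per library with the group mean and SD (n = 3 per group). SESN1, SEPP1 and ALDH1L2 lie higher in all High_IMF libraries, the other 5 lie lower, and 1 Low_IMF library of ALDH16A1 stands at 31.1 CPM.

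Superoxide dismutases and catalase come at the head of the chain. SOD2, the manganese enzyme of the mitochondrial matrix, was at 297, 220.0 and 225 CPM in High_IMF libraries 1 to 3 and at 300.3, 312 and 263 CPM in Low_IMF libraries 1 to 3. Its groups overlapped, since High_IMF library 1 reached the Low_IMF range (log2 fold change -0.24, SE 0.17, edgeR adjusted p = 0.459), and without it the value was -0.38. CAT, the peroxisomal catalase, was at 203, 243 and 305 CPM in High_IMF and at 215, 157 and 185 CPM in Low_IMF. Only High_IMF libraries 2 and 3 exceeded every Low_IMF library (0.43, SE 0.19, edgeR adjusted p = 0.290). Without High_IMF library 3 the value of CAT was 0.27 (edgeR adjusted p = 0.560, with 0.187 to 0.560 over all alternatives). SOD1, the copper and zinc enzyme of the cytosol, averaged 75.6 ± 1.90 CPM in High_IMF and 71.5 ± 16.1 CPM in Low_IMF (SD, n = 3 each).

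Glutathione peroxidases were on the higher side in 3 of 3 records, with log2 fold changes between 0.20 and 0.31 and no adjusted p below 0.408 (edgeR). GPX3, the secreted plasma enzyme, was at 141, 245 and 217 CPM in High_IMF and at 111, 88.9 and 287 CPM in Low_IMF. Low_IMF library 3 held the highest value of all 6 and the other Low_IMF libraries the lowest. The log2 fold change of GPX3 was 0.31 (SE 0.44), against 1.01 without Low_IMF library 3 and 0.01 without Low_IMF library 2. GPX4, which reduces lipid hydroperoxides within membranes, was at 20.2, 17.4 and 18.6 CPM in High_IMF and at 16.2, 14.4 and 18.6 CPM in Low_IMF (0.20, SE 0.15). GPX8, a cysteine-based enzyme of the endoplasmic reticulum, was at 18.2, 18.4 and 17.2 CPM in High_IMF and at 18.7, 12.3 and 12.2 CPM in Low_IMF. Its Low_IMF library 1 lay above all High_IMF libraries, and without it the log2 fold change was 0.56 in place of 0.31.

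Peroxiredoxins, the abundant thiol peroxidases, had negative log2 fold changes in 5 of 6 records, with a median of -0.12. PRDX3, the mitochondrial member, was at 198, 197 and 206 CPM in High_IMF and at 224, 202 and 216 CPM in Low_IMF. Its log2 fold change was -0.09, with a 95% interval from -0.38 to 0.19. PRDX2, a cytosolic member that is also abundant in red blood cells, was at 119, 104 and 124 CPM in High_IMF and at 123.2, 122 and 146 CPM in Low_IMF (-0.17, SE 0.14, edgeR adjusted p = 0.521). PRDX1, its cytosolic relative, was at 37.5, 38.0 and 35.3 CPM in High_IMF and at 32.4, 58.4 and 58.1 CPM in Low_IMF. Low_IMF library 1 lay below all High_IMF libraries and the other Low_IMF libraries lay well above them (-0.43, SE 0.22, edgeR adjusted p = 0.342). Without Low_IMF library 1 the value of PRDX1 was -0.64 (edgeR adjusted p = 0.069, with 0.069 to 0.585 over all alternatives). PRDX1 overlaps MMACHC on the other strand by 689 bases, and because the strand setting of the counting is not given, reads of the pair cannot be told apart. PRDX4, PRDX5 and PRDX6 had log2 fold changes of -0.13, 0.09 and -0.10.

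In the thioredoxin system 11 of 12 records had a negative log2 fold change, TXNDC4 among them at -0.01 but turning positive with DESeq2 size factors, with a median of -0.19, where 54.8% of all records were negative. The records share libraries, so their count is no test. TXN2, the mitochondrial thioredoxin that recharges PRDX3, was at 29.7, 30.9 and 28.8 CPM in High_IMF and at 35.4, 38.8 and 41.2 CPM in Low_IMF. All 3 High_IMF libraries lay below all 3 Low_IMF libraries (-0.37, SE 0.12, 95% interval -0.64 to -0.10, edgeR adjusted p = 0.183). TXNDC12, a thioredoxin-fold protein of the endoplasmic reticulum, was at 27.3, 27.8 and 23.7 CPM in High_IMF and at 34.1, 36.4 and 37.2 CPM in Low_IMF. Its groups were also apart (-0.45, SE 0.12, 95% interval -0.73 to -0.17, edgeR adjusted p = 0.146). DESeq2 alone called it (adjusted p = 0.0394, with 0.0394 to 0.346 over all alternatives). TXNDC15 averaged 46.5 ± 6.40 CPM in High_IMF and 57.4 ± 1.96 CPM in Low_IMF (SD, n = 3 each), without overlap (-0.31, SE 0.13, edgeR adjusted p = 0.281).

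In the remaining thioredoxin records the groups overlapped. TXN, the cytosolic thioredoxin, averaged 27.9 ± 4.49 CPM in High_IMF and 31.0 ± 9.66 CPM in Low_IMF (SD, n = 3 each; -0.15). TXNRD1, the selenoenzyme that reduces it with NADPH, averaged 44.9 ± 7.68 CPM in High_IMF and 56.2 ± 7.24 CPM in Low_IMF (SD, n = 3 each; -0.32, edgeR adjusted p = 0.338). TXNDC11 and TXNDC17 had -0.33 and -0.23. TXNDC4, listed in RefSeq as ERP44, TXNDC9, TXNL1 and TXNL4A had values between -0.10 and -0.01. TXNL4A matches the list by name but belongs to the spliceosome. TXNIP, which binds thioredoxin and restrains glucose uptake, was the 1 record with a positive value. It was at 1350.4, 1779.7 and 2374 CPM in High_IMF and at 1344, 1306 and 1714 CPM in Low_IMF. The ranges overlapped, with High_IMF library 3 highest (0.33, SE 0.24, edgeR adjusted p = 0.471), and without that library the value was 0.11 (edgeR adjusted p = 0.848, with 0.353 to 0.848 over all alternatives). TXNIP alone took between 0.129% and 0.236% of all reads in High_IMF and between 0.136% and 0.161% in Low_IMF. The other 48 members together took between 0.315% and 0.344% in High_IMF and between 0.308% and 0.339% in Low_IMF.

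Glutaredoxins, which use glutathione to reduce protein disulfides or carry iron-sulfur clusters, had negative values in 3 of 3 records. GLRX, the cytosolic glutaredoxin, was at 13.5, 17.5 and 13.9 CPM in High_IMF and at 14.0, 22.9 and 40.9 CPM in Low_IMF. Its log2 fold change of -0.79 (SE 0.36, edgeR adjusted p = 0.289) was the lowest of the 49, and without Low_IMF library 3 it was -0.30 (edgeR adjusted p = 0.576, with 0.0973 to 0.576 over all alternatives). Low_IMF library 1 of GLRX lay within the High_IMF range. GLRX5, of mitochondrial iron-sulfur assembly, was at 11.4, 8.13 and 13.7 CPM in High_IMF and at 16.9, 18.7 and 11.8 CPM in Low_IMF. The groups overlapped through Low_IMF library 3 (-0.51, SE 0.24, edgeR adjusted p = 0.304), and without High_IMF library 2 the value was -0.34. GLRX3 was at 45.8, 44.5 and 53.8 CPM in High_IMF and at 50.6, 47.7 and 60.1 CPM in Low_IMF (-0.14, SE 0.14).

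Enzymes that make glutathione showed log2 fold changes between -0.12 and 0.27. GCLC, the catalytic subunit of the rate-limiting ligase, was at 23.5, 22.9 and 16.3 CPM in High_IMF and at 14.7, 15.6 and 21.8 CPM in Low_IMF. Each group had 1 library within the range of the other (0.27, SE 0.21, edgeR adjusted p = 0.512). GSS, which adds glycine in the last step, was at 30.8, 28.1 and 37.8 CPM in High_IMF and at 37.1, 33.8 and 34.6 CPM in Low_IMF (-0.12, SE 0.14), and it overlaps ACSS2 on the other strand by 3680 bases. GCLM, the modifier subunit, averaged 32.7 ± 4.21 CPM in High_IMF and 31.4 ± 9.54 CPM in Low_IMF (SD, n = 3 each).

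Among the 5 glutathione transferases GSTK1 stood apart. GSTK1 (ENSSSCG00000016466, chromosome 18, 7234190 to 7239985 in the deposited table, build not given), the kappa-class enzyme of mitochondria and peroxisomes, was at 16.7, 12.8 and 17.6 CPM in High_IMF and at 24.8, 30.001 and 23.6 CPM in Low_IMF. The highest High_IMF library was below the lowest Low_IMF library, and the means were 15.7 ± 2.58 CPM in High_IMF and 26.1 ± 3.398 CPM in Low_IMF (SD, n = 3 each). Its log2 fold change was -0.74 (SE 0.17, 95% interval -1.14 to -0.33, edgeR adjusted p = 0.117), and it stayed between -0.83 and -0.61 with any 1 library left out. DESeq2 called it (adjusted p = 0.00869, with 0.00869 to 0.333 over all alternatives). GSTP1, the pi-class enzyme, was at 39.1, 35.2 and 62.5 CPM in High_IMF and at 48.5, 45.0 and 57.0 CPM in Low_IMF. MGST3, a membrane-bound relative, was at 25.6, 22.3 and 27.2 CPM in High_IMF and at 23.1, 23.2 and 22.5 CPM in Low_IMF. The log2 fold changes of GSTP1 (-0.14), GSTZ1 (-0.20), GSTO1 (0.11) and MGST3 (0.13) were all small, and none had an edgeR adjusted p below 0.612. Related transferases can share reads, and the counter is not given.

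NQO1, a quinone reductase and a standard target of the stress factor NRF2, was at 10.6, 16.1 and 13.3 CPM in High_IMF and at 13.5, 11.8 and 12.8 CPM in Low_IMF. The Low_IMF libraries lay inside the High_IMF range (0.07, 95% interval -0.35 to 0.49). HMOX2, the constitutive heme oxygenase, was at 41.2, 37.9 and 60.3 CPM in High_IMF and at 58.9, 65.2 and 53.3 CPM in Low_IMF. High_IMF library 3 was the library that overlapped, and without it the log2 fold change was -0.58 (edgeR adjusted p = 0.256) in place of -0.35 (edgeR adjusted p = 0.366, with 0.256 to 0.675 over all alternatives).

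SEPP1, selenoprotein P, carries selenium through plasma and was among the members with the largest values on the higher side. SEPP1 (ENSSSCG00000021208, chromosome 16, 29021315 to 29026496) was at 184, 217 and 291 CPM in High_IMF and at 152, 94.3 and 152 CPM in Low_IMF. Every High_IMF library exceeded every Low_IMF library. Its means stood at a ratio of 1.74 and its log2 fold change was 0.80 (SE 0.25, 95% interval 0.23 to 1.37, edgeR adjusted p = 0.176), and DESeq2 called it (adjusted p = 0.039, with 0.039 to 0.375 over all alternatives). SEPW1, the selenoprotein W of muscle, was at 307, 208 and 263 CPM in High_IMF and at 239.8, 186 and 342 CPM in Low_IMF, with a log2 fold change of 0.02 (95% interval -0.56 to 0.60). Of the 5 members that carry selenocysteine (GPX3, GPX4, TXNRD1, SEPP1 and SEPW1), 4 had positive values and 1 negative, none past the test. Records of selenoproteins outside the list by name, SELO, SELS, SELK and SELT, had log2 fold changes between -0.33 and -0.04, and the unnamed record that the Ensembl name table calls SELENOF had -0.13.

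SESN1, a sestrin that is induced by stress factors and restrains mTORC1, had the highest log2 fold change of the list. SESN1 (ENSSSCG00000004390, chromosome 1, 84358199 to 84373672) was at 63.3, 74.1 and 119.6 CPM in High_IMF and at 49.3, 59.1 and 39.1 CPM in Low_IMF. The groups did not overlap, although High_IMF library 1 and Low_IMF library 2 were near each other. The log2 fold change was 0.80 (SE 0.26, 95% interval 0.19 to 1.41, edgeR adjusted p = 0.189), and 0.48 without High_IMF library 3 (edgeR adjusted p = 0.361, with 0.0529 to 0.368 over all alternatives).

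The 9 aldehyde dehydrogenases of the list had 5 positive and 4 negative values, between -0.73 and 0.64. Outside the list, an unnamed record that the Ensembl name table calls ALDH1A3 had -0.35 (edgeR adjusted p = 0.516). ALDH1L2 (ENSSSCG00000000839, chromosome 5, 82894882 to 82958376), the mitochondrial enzyme that oxidises formyl-tetrahydrofolate and yields NADPH, was at 41.7, 37.5 and 45.7 CPM in High_IMF and at 31.4, 25.0 and 23.8 CPM in Low_IMF. The groups were apart, with means at a ratio of 1.56. Its log2 fold change was 0.64 (SE 0.15, 95% interval 0.28 to 0.99, edgeR adjusted p = 0.117), and it lay between 0.56 and 0.78 with any 1 library left out. DESeq2 called it as well (adjusted p = 0.0114, with 0.0114 to 0.309 over all alternatives). ALDH2, the mitochondrial enzyme of acetaldehyde and of lipid aldehydes, was at 453, 253 and 292 CPM in High_IMF and at 291, 268 and 407 CPM in Low_IMF. Each group of ALDH2 had 1 high library, and the log2 fold change was 0.04 (95% interval -0.56 to 0.65), turning to -0.23 without High_IMF library 1.

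ALDH16A1 was at 11.6, 11.6 and 11.3 CPM in High_IMF and at 13.9, 31.1 and 12.2 CPM in Low_IMF. Low_IMF library 2 stood far above the others. The log2 fold change was -0.73 (SE 0.34, edgeR adjusted p = 0.301), and -0.18 without that library (edgeR adjusted p = 0.587, with 0.209 to 0.587 over all alternatives). ALDH16A1 also overlaps PIH1D1 on the other strand by 8320 bases. ALDH7A1, of lysine breakdown, averaged 24.3 ± 9.97 CPM in High_IMF and 16.7 ± 2.52 CPM in Low_IMF (SD, n = 3 each; 0.54, and 0.16 without High_IMF library 3). ALDH9A1, of carnitine synthesis, averaged 93.8 ± 15.3 CPM in High_IMF and 69.4 ± 25.3 CPM in Low_IMF (SD, n = 3 each; 0.43). It was 0.78 without Low_IMF library 3 and 0.28 without Low_IMF library 2. ALDH3A2, which oxidises fatty aldehydes, had -0.30, with -0.59 without Low_IMF library 1 and -0.03 without Low_IMF library 3. ALDH18A1, of proline synthesis, had -0.45, with -0.73 without High_IMF library 2 and -0.23 without High_IMF library 3. ALDH4A1, of proline breakdown, had -0.08, with 0.04 without High_IMF library 2 and -0.28 without High_IMF library 3, and it is overlapped on the other strand by an unnamed record over 18600 bases. ALDH6A1, of valine breakdown, had 0.10, with -0.06 without High_IMF library 3 and 0.30 without Low_IMF library 1. With all 6 libraries no adjusted p of these 6 was below 0.339 (edgeR).

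**Figure D3:**
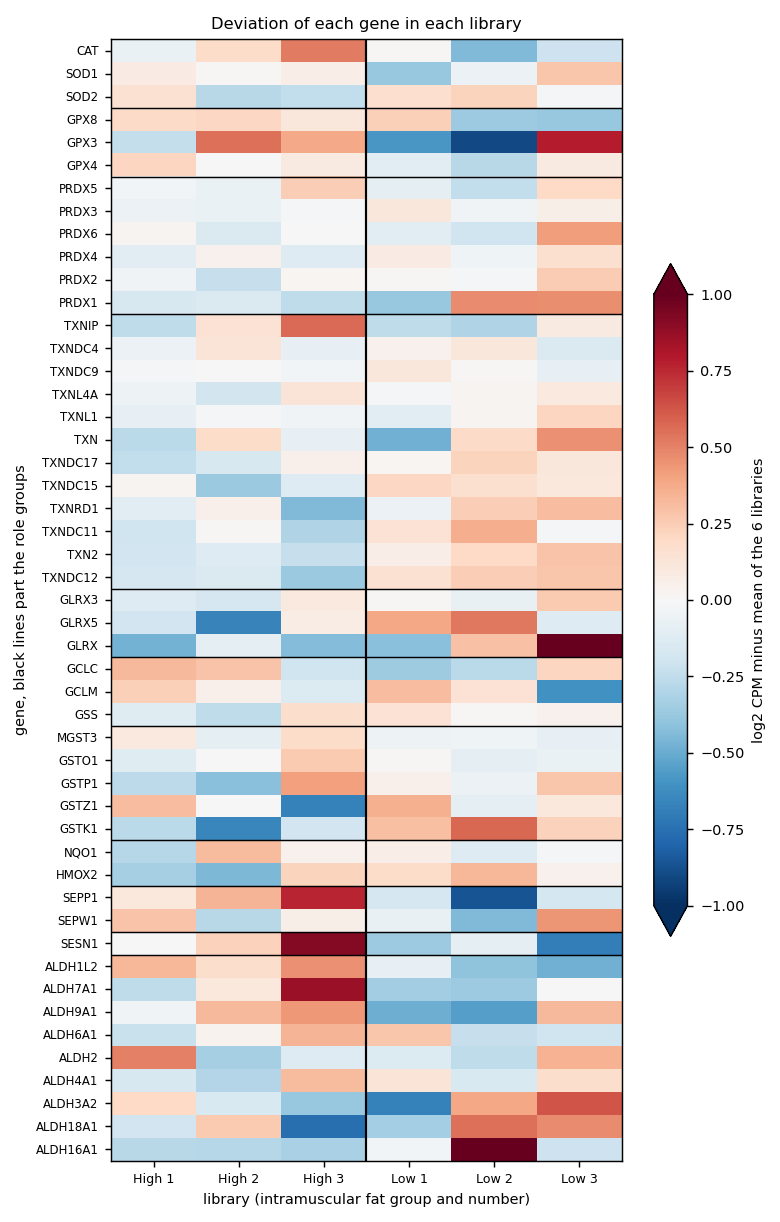
Log2 CPM of each of the 49 genes (rows, in role groups) minus its mean over the 6 libraries, for High_IMF libraries 1 to 3 (left) and Low_IMF libraries 1 to 3 (right), red above and blue below the mean. High_IMF library 3 is the highest library for 15 genes and Low_IMF library 3 for 14.

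The library with the highest value varied by member. High_IMF library 3 gave the highest value in 15 of 49 members (30.6%, against 16.1% of all records), among them TXNIP, CAT, SEPP1, SESN1, ALDH7A1 and ALDH9A1. Low_IMF library 3 gave the highest value in 14 (28.6%, against 24.9% of all records), among them GLRX, GPX3, PRDX2, PRDX6 and TXN. High_IMF library 1 gave the highest value in 3, which were ALDH2, GPX4 and GCLC. The median deviation of the 49 genes from their mean was -0.08, -0.01 and 0.04 on the log2 scale in High_IMF libraries 1 to 3 and 0.01, -0.04 and 0.11 in Low_IMF libraries 1 to 3, so the groups overlapped. Mitochondrially encoded reads took 7.08%, 6.99% and 11.5% of the High_IMF libraries and 12.7%, 8.96% and 8.06% of the Low_IMF libraries, and their part in these values was not tested. The median coefficient of variation of the members was 14.8% in High_IMF and 15.1% in Low_IMF, against 10.6% and 14.6% over all records.

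Markers of other cells were summed in each library. The 9 fibroblast and matrix records (7 of 7 genes) summed to between 3190 and 4214 CPM in High_IMF and between 1365 and 2833 CPM in Low_IMF, with all 9 log2 fold changes positive and none past the edgeR test. The authors' deposited false discovery rate was under 0.05 for FBN1 (0.00113), PDGFRA (0.00199) and COL3A1 (0.0211). It was also under 0.05 for 1 record each of COL1A1 (0.00677) and COL1A2 (0.0317), and not for the other matrix records. PDGFRA was under 10 CPM in Low_IMF libraries 1 and 2. The 7 adipocyte records (PLIN1, LIPE, AQP7, CIDE-C, CFD, AOC3 and CIDEA) summed to between 182 and 331 CPM in High_IMF and between 136 and 172 CPM in Low_IMF, 5 of them higher in High_IMF and 2 lower. PLIN1, which coats fat droplets, was the 1 marker that passed the edgeR test (2.75, SE 0.32, edgeR adjusted p = 0.0409). By the authors' deposited rate PLIN1, CIDE-C, CIDEA and AOC3 (0.0085) were under 0.05, and LIPE, AQP7 and CFD were not. PLIN1, CIDE-C and CIDEA were above 10 CPM in the 3 High_IMF libraries alone. They met the 10 CPM minimum only through that group, so their differences are no independent measure of adipocyte content. Endothelial (284 to 338 CPM in High_IMF and 218 to 340 CPM in Low_IMF, 4 of 5 genes), macrophage (123.01 to 188 CPM in High_IMF and 74.3 to 224 CPM in Low_IMF, 4 of 7 genes) and erythrocyte sums (104 to 166 CPM in High_IMF and 114 to 228 CPM in Low_IMF, 2 of 5 genes) overlapped. None of the measured markers was at 0. SEPP1, GPX3 and GPX8 are also made by cells other than muscle fibres, and the part of the matrix and adipocyte markers in their values was not tested.

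Genes that regulate or supply the network were read from a list of 61 symbols, of which 33 were measured on 35 records. None passed the test (edgeR), 17 had positive and 18 negative log2 fold changes, and 5 (14.3%, against 18.5% of all records) had an unadjusted p under 0.05 (BACH1, IDH1, ME1 and NOX4 higher in High_IMF and FTL lower). Those 5 are named here with a few others chosen after their values were seen. The authors' deposited false discovery rate was under 0.05 for 4 of the 35 records, against 4.12% of all records. These were BACH1 (0.000172), IDH1 (0.00564), ME1 (0.00672) and NOX4 (0.0149), all higher in High_IMF. The limits given below for IDH1 and NOX4, from the 10 CPM minimum, hold for these rates too. BACH1, the repressor that competes with NRF2 at antioxidant genes, was at 43.1, 47.2 and 51.0 CPM in High_IMF and at 20.9, 26.2 and 20.0 CPM in Low_IMF. Its libraries were widely apart, with a log2 fold change of 1.07 (SE 0.15, edgeR adjusted p = 0.0572), larger in size than that of any of the 49 members. NFE2L2, which encodes NRF2 itself, was at 65.1, 74.0 and 72.8 CPM in High_IMF and at 67.4, 84.4 and 54.1 CPM in Low_IMF (0.04, SE 0.18). KEAP1, the adaptor that marks NRF2 for degradation, had -0.25 on both of its records, without overlap of the groups (edgeR adjusted p = 0.291 for each), and its records can share reads.

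Sources of NADPH were mixed in direction, with 5 of 9 records of that list positive and 4 negative. IDH1, the cytosolic isocitrate dehydrogenase that forms NADPH, was at 15.5, 15.1 and 16.8 CPM in High_IMF and at 7.22, 8.91 and 9.05 CPM in Low_IMF (0.91, SE 0.15, edgeR adjusted p = 0.0762). It met the 10 CPM minimum only through the High_IMF libraries, so its separation is no independent result. NOX4, an NADPH oxidase that releases hydrogen peroxide, was at 13.0, 16.8 and 23.1 CPM in High_IMF and at 10.7, 8.67 and 7.95 CPM in Low_IMF (0.95, SE 0.23, edgeR adjusted p = 0.130). With Low_IMF libraries 2 and 3 under 10 CPM, NOX4 also met that minimum with the help of its high group, which limits its separation likewise. ME1, the cytosolic malic enzyme that also forms NADPH, was at 77.7, 56.6 and 60.6 CPM in High_IMF and at 37.8, 27.8 and 39.8 CPM in Low_IMF (0.89, SE 0.19, edgeR adjusted p = 0.109). In these 3 genes every High_IMF library exceeded every Low_IMF library. Among the 35 related records 4 were higher and 4 lower without overlap, where 13.5% and 13.3% of all records were. The higher ones were BACH1, IDH1, ME1 and NOX4. The lower ones were IDH2, SELO and both records of KEAP1, which can share reads. MAOA, a monoamine oxidase that also forms hydrogen peroxide, was the other oxidant source measured and stood at 0.41 (SE 0.23, edgeR adjusted p = 0.376), with groups that overlapped. IDH2, the mitochondrial counterpart of IDH1, stood at -0.33 (SE 0.16, edgeR adjusted p = 0.298) with the groups apart on the lower side. SRXN1, the sulfiredoxin that repairs over-oxidised peroxiredoxins, is named by the Ensembl table and was at 24.7, 15.6 and 9.55 CPM in High_IMF and at 33.3, 15.4 and 52.9 CPM in Low_IMF. The groups overlapped, and the log2 fold change of -1.03 had an SE of 0.48 (edgeR adjusted p = 0.298). FTL, the ferritin light chain, stood at -0.52 (SE 0.21, edgeR adjusted p = 0.251), with 297 ± 16.0 CPM in High_IMF and 427 ± 118 CPM in Low_IMF (SD, n = 3 each).

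**Figure D4:**
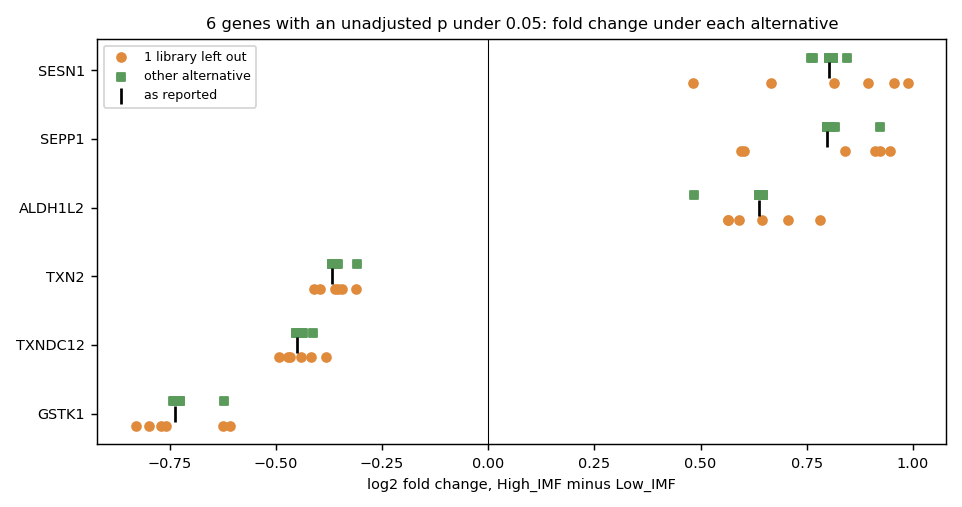
Log2 fold change (x axis, High_IMF minus Low_IMF) of the 6 genes with an unadjusted p under 0.05, as reported (black bar), with each of the 6 libraries left out in turn (orange) and under the other alternatives (green). The points of SESN1 run from 0.48 to 0.99 and those of TXN2 from -0.41 to -0.31.

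The 6 genes with an unadjusted p under 0.05 have groups without overlap, so leaving out a library cannot turn their sign, and the plot of alternatives shows only how far the size moves. TXN2 lay between -0.41 and -0.31 and TXNDC12 between -0.49 and -0.38 with any 1 library left out. SEPP1 lay between 0.60 and 0.95, and SESN1 between 0.48 and 0.99.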

How the data were processed

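Longissimus RNA of 6 pigs (TRIzol, Illumina TruSeq) was sequenced, per the labels' protocols. FastQC 0.10.1, Trimmomatic 0.22, TopHat2 2.0.4 and BWA 0.6.2 are named without roles in the submitters' processing notes. Counter, strand setting, build and annotation: not given in the sources used here. The authors deposited raw read counts per gene and, beside them, CPM, which is the count divided by 1 library total; those totals served as library sizes here. The deposited log2 fold changes of the authors run low over high and were turned around. Their deposited p-values and false discovery rates were copied as given.

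Counts of all 7661 records were fitted in R 4.3.3 with edgeR 4.0.16 (TMM, filterByExpr, which removed none, quasi-likelihood F-test, group only, Benjamini-Hochberg over all records, threshold 0.05). SE is the size of the log2 fold change over the root of F, and 95% intervals use the fit's degrees of freedom. limma 3.58.1 (voom) and DESeq2 1.42.0 were alternatives. In simulated data for the 7661 genes the main test recovered 62 of 100 genes changed by 1 log2 unit and 99 of 100 changed by 2. Those counts were drawn at fitted dispersions, so the rates hold for that setting and do not give the power in these libraries. In the real data PLIN1 at 2.75 passed and CIDE-C at 2.38 did not (edgeR adjusted p = 0.0409 and 0.116). The labels call the libraries separate samples and the design 3 per group. The p-values set the group difference against the spread between these samples. The members and lists were chosen with earlier results of these data known. All records matching the symbol rule could be named. Values per library are given for any past the threshold, the 2 with the lowest p and the 1 with the highest mean CPM in each role group. Other members are given by mean or log2 fold change. Related genes and markers were matched by deposited symbol, or by the Ensembl name table where a record had none. Protein and promoter sequences were not used here.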

Additional observations from a re-analysis of the deposited data

How the results depend on the processing

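The count of 0 members past the threshold held under edgeR with DESeq2 size factors, with library sizes from the listed genes, without a filter, with a mean CPM of at least 30 (29 members tested), with the span trend removed, in limma-voom, in the exact test, at a threshold of 0.1 and with any 1 library left out (0 to 0). DESeq2 called 4, ALDH1L2 at 0.65, GSTK1 at -0.73, SEPP1 at 0.81 and TXNDC12 at -0.44, which is 8.16% of the members where it called 6.77% of all records. At 0.05 the settings with 0 members called took between 0.0131% (without Low_IMF library 2) and 4.12% (exact test) of all records. The members' median ranged from -0.13 to -0.03 with 1 library left out. It was -0.04 with the trend of fold change on genomic span removed, where the median over all records was -0.04. Signs turned under some alternative for 17 of the 49 members, whose reported values lie between -0.20 and 0.11. With the span trend removed ALDH2 was -0.013 and TXNDC9 0.036. TXNDC4 was 0.0024 with DESeq2 size factors, 0.0032 with the CPM minimum and 0.0021 in DESeq2. With 1 library left out the range was -0.23 to 0.25 for ALDH2, -0.285 to 0.040 for ALDH4A1, -0.060 to 0.296 for ALDH6A1, -0.167 to 0.249 for GCLM, -0.0083 to 0.201 for GSTO1, -0.43 to 0.020 for GSTP1, -0.415 to 0.032 for GSTZ1, -0.086 to 0.22 for NQO1, -0.010 to 0.232 for PRDX5, -0.218 to 0.118 for PRDX6, -0.16 to 0.29 for SEPW1, -0.053 to 0.265 for SOD1, -0.361 to 0.070 for TXN, -0.077 to 0.046 for TXNDC4, -0.070 to 0.036 for TXNDC9, -0.157 to 0.0020 for TXNL1 and -0.153 to 0.0076 for TXNL4A. The cause was not tested. Deviations from the group means correlated across genes at 0.118, 0.0312 and -0.0815 for the same replicate numbers 1 to 3. Libraries of different numbers ran from -0.185 to 0.144. With 3 libraries per group these values cannot tell whether animals were paired. With the replicate block 0 members passed, their median was -0.09, and 2 records of the table were called in place of 11. The smallest two-sided p of an exact permutation test in this design is 0.1, so none is given.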
